A study of Bos taurus with 2 samples.

Results

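The genes described here are 10 transcriptional regulators, namely regulators of energy use in muscle and, beside them, *NR2E3*. They are the nuclear receptors *PPARA*, *PPARD*, *RXRB*, *RXRG*, *ESRRA*, *ESRRG* and *NR2E3*, the coactivators *PPARGC1A* and *PPARGC1B*, and the mitochondrial factor *TFAM*. Probes were assigned to them when the accession given with the probe belonged to a RefSeq transcript of the gene, without use of the measured values. This gave 15 of the 43653 probes of the array, for 8 of the 10 genes. No probe used here matched *ESRRG* or *PPARGC1B*, and their expression was not analysed. The 8 genes are among 12603 named genes with a probe and 19554 genes, named or not, with a value in both pools.

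The samples were fetal *longissimus thoracis* (LT) muscles of Japanese Black cattle, collected at 8.5 months of gestation (day 260 ± 8.3) from dams inseminated with male-sorted semen of a single sire. The HN dams received 120% and the LN dams 60% of the nutritional requirement during gestation, including the time before pregnancy. Total RNA of 4 fetuses per group was pooled, those of highest body weight in the HN group and those of lowest body weight in the LN group, and each pool was measured on 1 Agilent one-color array. Diet and selection by body weight therefore cannot be told apart. With 1 array per group the difference could not be tested, and the variation between fetuses is not known. In a whole-muscle pool, fewer cells of a type and less RNA per cell cannot be told apart either.

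Peroxisome proliferator-activated receptors (PPARs) are nuclear receptors that are activated by fatty acids, bind DNA as heterodimers with a retinoid X receptor (RXR), and switch on genes for the uptake and oxidation of lipids. Estrogen-related receptors (ERRs) are orphan receptors that act on genes of the respiratory chain and the citric acid cycle. The PGC-1 coactivators (*PPARGC1A* and *PPARGC1B*) dock on PPARs and ERRs and raise mitochondrial content in muscle, in part through *TFAM*, which packages and transcribes mitochondrial DNA. *NR2E3* differs from the others, since it is known as an orphan receptor of photoreceptors in the retina.

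The 8 measured regulators had no direction in common. Values are log2 signals after quantile normalization of the arrays, and a gene was counted as different when its log2 LN/HN was past 0.32 in either direction. *NR2E3* was past this threshold with a higher and *RXRG* with a lower value in the LN pool, and the other 6 were within it. Thus 1 of 8 regulators was past 0.32 higher, against 8.85% of all genes, and 1 was past 0.32 lower, against 9.11%. Past 2-fold higher was *NR2E3* alone, against 0.711% of all genes, and none was past 2-fold lower (0.286% of all genes). At the threshold of 0.32, a count of 1 of 8 in each direction is near the background. The median log2 LN/HN was 0.01 for the regulators and -0.003 for all genes, with 4 regulators higher and 4 lower. Each probe value has an error given by the scanner software, which had a median of 10.3% (HN) and 10.5% (LN) of the signal over all spots and, for the detected probes of the regulators, 0.20 to 0.30 (1 SD) on the scale of the log2 LN/HN.

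**Figure D1:**
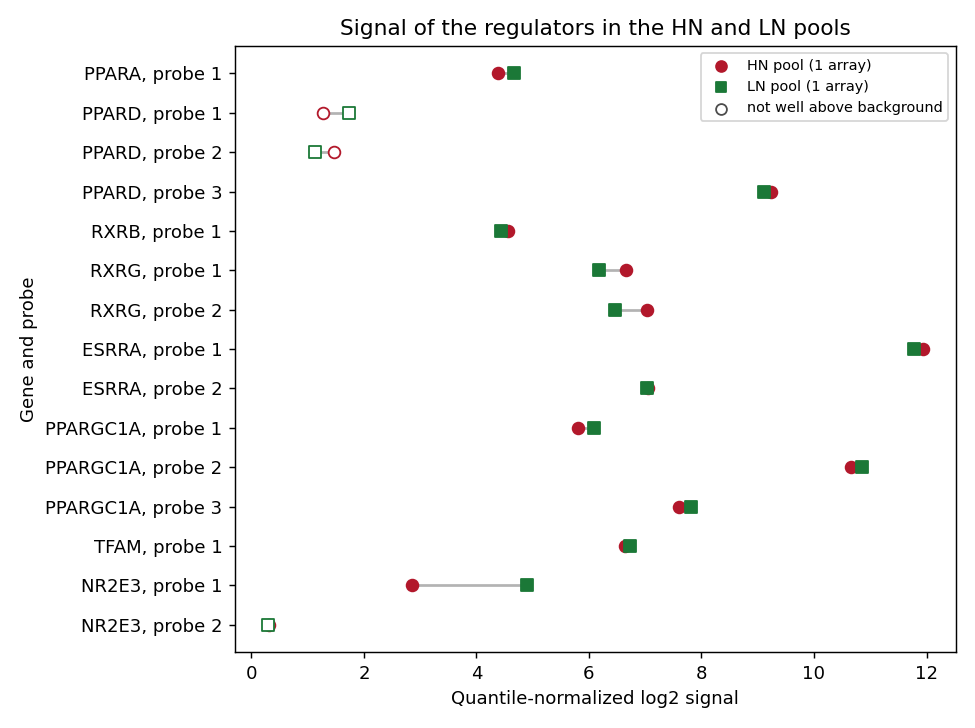
Quantile-normalized log2 signal (x axis) of each probe of the 8 regulators (y axis) in the HN pool (red circles) and the LN pool (green squares), 1 array each; open symbols are probes not well above background. The pair of symbols is widely apart for the first probe of *NR2E3* (2.85 and 4.91), moderately apart for both probes of *RXRG*, and close together for the other detected probes.

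*PPARA* encodes the PPAR that drives fatty acid oxidation. Its single probe gave a deposited signal of 21.3 for HN and 24.7 for LN, and a normalized log2 signal of 4.38 and 4.66. The log2 LN/HN was 0.29 ± 0.25 (software error), a 1.22-fold difference, and 10.7% of all genes had a higher value. The spot was dim on both arrays and its direction was not stable. The raw median brightness was 49 against a local background of 26 on the HN array, and 48.5 against 28 on the LN array, so the net raw signal was 23 in HN and 20.5 in LN (log2 LN/HN -0.17). When the same raw signals were corrected with normexp, a model-based background correction that here adds an offset of 50, the log2 LN/HN was -0.04. The higher LN value of *PPARA* was thus seen in the processed signal but not in the raw brightness. When all genes were split by signal into 3 groups of equal size, 17.7% of the dimmest group, to which *PPARA* belongs, were past 0.32 higher, against 6.27% of the middle and 2.58% of the brightest group.

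The deposited files used here hold no probe sequences. The sequences at hand for these genes are the PCR primers that the study designed for *PPARA* and *NR2E3*, which are shown because they tell which transcripts the study set beside the array probes. They are written 5′ to 3′ in lower case, with no part set in capitals.
*PPARA* forward: agtttggttgtccccgactg
*PPARA* reverse: ttctgccaaactctccaccac
*NR2E3* forward: ctggtcctcttcaaaccagaaaca
*NR2E3* reverse: ataaatctcaaagacgggaggagc
The *NR2E3* primers and both *NR2E3* probes refer to the same transcript, NM_001167900. The *PPARA* primers refer to XM_005207472 and the probe to NM_001034036, which RefSeq lists as transcripts of the same gene. The PCR itself was not analysed here.

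*PPARD* encodes the PPAR form that is widespread in muscle and takes part in the response to exercise and fasting. Of its 3 probes, only the third was detected, with a deposited signal of 594 in HN and 566 in LN and a log2 LN/HN of -0.12 ± 0.20. The others were not well above background on either array, with deposited signals of 2.82 and 3.16 in HN and 2.94 and 1.88 in LN. The detected probe lay in the brightest group of genes, and its difference was smaller than its error. With the dim probes averaged in, *PPARD* had a log2 LN/HN of 0.004. *PPARG*, the adipocyte form, was detected with both of its probes and had a log2 LN/HN of -0.15 (probes -0.18 and -0.12).

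The RXRs are the common partners of the PPARs and of several other receptors. *RXRG*, the form found mainly in muscle and brain, had the largest lower value of the 8 genes. Its first probe had a deposited signal of 100.4 in HN and 72.7 in LN (log2 LN/HN -0.47 ± 0.21), and its second probe 130.4 in HN and 87.5 in LN (-0.57 ± 0.21). Both probes were lower in the LN pool, each by more than 2 times its software error. The mean was -0.52 ± 0.08 (SD between the 2 probes), a 1.43-fold difference, and 3.07% of all genes had a lower value. Among genes in the middle group by signal, where *RXRG* lies, 7.0% were past 0.32 lower. The net raw signals gave the same direction, 99.5 against 77.5 for the first probe and 142 against 94.5 for the second (log2 LN/HN -0.36 and -0.59). With normexp the mean was -0.3217, just short of the threshold, while in the other settings it lay between -0.57 and -0.50. Spots within 2 rows and 1 column that were well above background on both arrays were also compared. Their median log2 LN/HN was -0.08 (-0.60 to 1.02) around the first probe and -0.20 (-0.45 to 0.27) around the second.

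*RXRB*, the form expressed in most tissues, was measured by a single dim probe. Its deposited signal was 24.2 in HN and 21.1 in LN, and its log2 LN/HN was -0.13 ± 0.24, less than its error. *RXRA*, which no matched probe measured, was not analysed here, so the family is described by 2 of its genes. The difference between *RXRG* and *RXRB* was not tested.

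**Figure D2:**
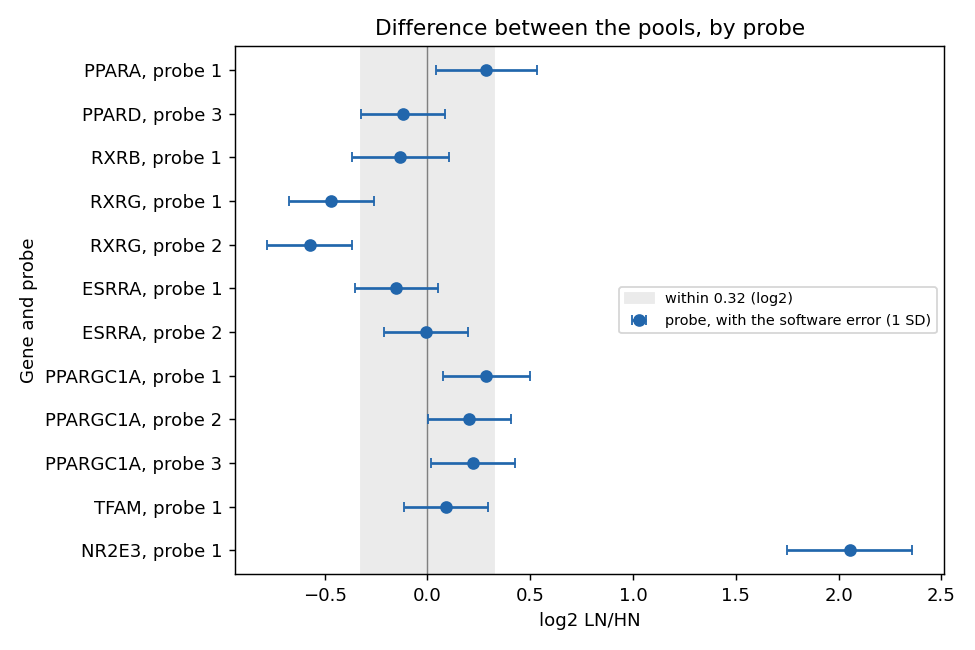
log2 LN/HN (x axis) of the 12 detected probes of the regulators (y axis); bars are the error of the scanner software (1 SD), which covers the spot measurement and not the variation between fetuses, and the grey band is the range within 0.32. Only the probe of *NR2E3* (2.05) and both probes of *RXRG* (-0.47 and -0.57) lie outside the band.

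*ESRRA* encodes the ERR best known for control of mitochondrial genes. Its first probe had a deposited signal of 3853 in HN and 3575 in LN (log2 LN/HN -0.15 ± 0.20), and its second 131.5 in HN and 132.2 in LN (-0.01 ± 0.21). Neither probe differed by more than its error, and the mean of -0.08 ± 0.10 (SD between the 2 probes) lay near the middle of all genes, of which 35.0% had a lower value. No probe matched *ESRRB*.

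*PPARGC1A* encodes PGC-1α, the main coactivator of both receptor families in muscle. Its 3 probes differed widely in brightness, with deposited signals of 56.4, 1585 and 191.8 in HN and 68.1, 1882 and 228.0 in LN. All 3 were higher in the LN pool, with a log2 LN/HN of 0.29, 0.20 and 0.22. Their mean was 0.24 ± 0.04 (SD between the 3 probes), a 1.18-fold difference. The spread between its probes was below that of a typical gene, for which the median SD was 0.098. Each single probe, however, was only 1.00 to 1.36 times its software error from 0, the gene stayed within 0.32, and 13.8% of all genes had a higher value. The net raw signals of the 3 probes were also higher in LN (log2 LN/HN 0.27, 0.28 and 0.18), and under the 12 alternative settings the value lay between 0.16 and 0.26. *PPRC1*, a related coactivator of the PGC-1 family, had a log2 LN/HN of -0.12 with detected probes from -0.62 to 0.13, of which 1 was dim on 1 array and entered with a limit.

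*TFAM* was measured by 1 probe, with a deposited signal of 100.0 in HN and 106.1 in LN. The log2 LN/HN was 0.09 ± 0.21, less than its error, and 31.7% of all genes had a higher value. Net raw signals of 114.5 and 120 gave a similar difference (0.07).

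*NR2E3* had the largest difference of the 8 genes. Its first probe had a deposited signal of 7.72 in HN and 29.4 in LN. The log2 LN/HN was 2.05 ± 0.30, a 4.15-fold difference and 6.77 times the software error. Only 0.0358% of all genes had a higher value, and in the dimmest group of genes, to which *NR2E3* belongs, 1.64% were past 2-fold higher. The spot was faint: its raw median brightness was 38 against a local background of 27.5 in HN, and 55 against 23 in LN. The net raw signal was 10.5 in HN and 32 in LN (log2 LN/HN 1.61). Thus the spot was brighter and its local background lower on the LN array. Around this spot, 9 spots within 2 rows and 1 column were well above background on both arrays, with a log2 LN/HN from -1.0 to 0.48 and a median of 0.04. The second probe of *NR2E3*, for the same transcript, was not well above background on either array (deposited signals of 1.11 and 1.37) and gave no fold. The value of *NR2E3* therefore rests on 1 spot per array. With normexp it was 0.41, and with the second probe averaged in it was 1.02. Over the other settings it lay between 1.90 and 2.31.

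**Figure D3:**
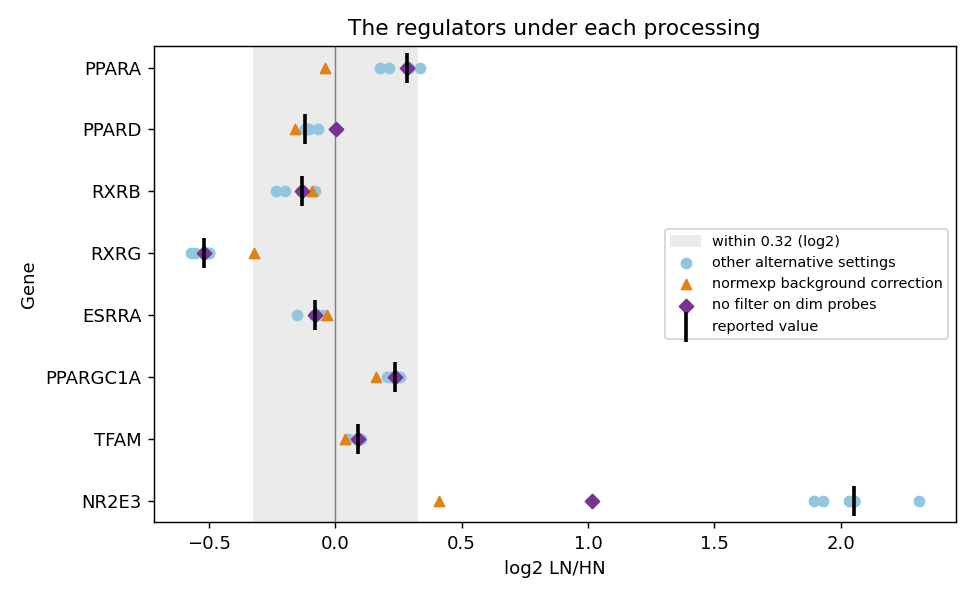
log2 LN/HN (x axis) of the 8 regulators (y axis) as reported (black bars) and under 12 alternative settings (symbols), with the range within 0.32 in grey. *NR2E3* moves from 2.05 to 0.41 with normexp and to 1.02 without a filter on dim probes, *PPARA* crosses 0 with normexp, *PPARD* reaches 0.004 with its dim probes included, and the others keep their direction.

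Because *NR2E3* is known from the retina, other genes of photoreceptors were examined. Of 22 genes, 21 had a probe, and in 12 of these no probe was detected, recoverin (*RCVRN*) among them. Among the 9 genes with a value, 2 were higher and 7 lower, and their median log2 LN/HN was -0.14. The highest were *GNAT1* (0.30), a subunit of rod transducin, and *CRX* (0.30), a transcription factor of photoreceptors, both within 0.32. The lowest was *ROM1* (-0.47), a protein of the rod outer segment. Next were *GUCA1A* (-0.30) and *ABCA4* (-0.30), and *CNGB1* followed the highest genes with -0.08. None was past 0.32 higher (8.85% of all genes) and *ROM1* was past 0.32 lower (9.11% of all genes), so neither count stands apart from the background. The median was sensitive to the processing and ranged from -0.33 to 0.03.

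**Figure D4:**
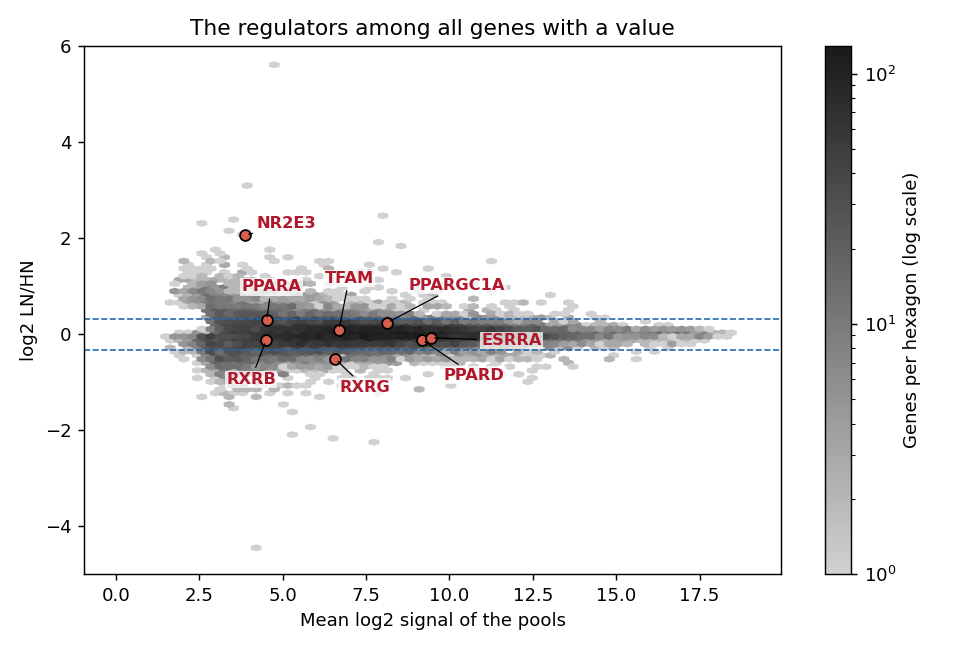
log2 LN/HN against mean log2 signal of the pools for the 19554 genes with a value (grey hexagons, log color scale), with the 8 regulators in red and dashed lines at 0.32. The spread of genes widens at low signal, where *PPARA*, *RXRB* and *NR2E3* lie. *NR2E3* stands above nearly all genes of similar signal, *RXRG* lies below the lower line, and the other 6 lie between the lines.

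Genes on which these regulators act were taken from lists written by hand. For the PPAR targets of lipid use, 19 of 21 genes had a value. Of these, 15 had a lower signal in LN, 10 of them past 0.32 (9.11% of all genes), and 2 genes were past 0.32 higher (8.85% of all genes). The median difference was -0.34, against -0.003 for all genes. Past 2-fold lower, as were 0.286% of all genes, were *ANGPTL4* (-2.20), an inhibitor of lipoprotein lipase, *UCP3* (-2.12), *UCP2* (-1.90) and *PDK4* (-1.28), the kinase that restrains glucose oxidation. The uncoupling protein genes were named after their values were seen. Of the 2 probes of *UCP3*, 1 was dim on the LN array and entered with its own signal there, so its value is uncertain. The value of *UCP2* is that of 1 probe measured on both arrays. A second detected probe of *UCP2* was dim on 1 array and gave no fold. *FABP3*, a fatty acid carrier of muscle, followed with -0.84. Higher in the LN pool were *PLIN2* (0.54), a coat protein of lipid droplets, *FABP4* (0.39), a fatty acid carrier of adipocytes, and *LPL* (0.20), which was within 0.32. The study chose 4 genes of this list from the same arrays for PCR. Without them, the median of the 15 others was -0.23, with 11 lower, 6 past 0.32 lower and 2 past 0.32 higher, to be read against the same shares of all genes. The PPAR receptors themselves, with a log2 LN/HN of 0.29, -0.12 and -0.15 for *PPARA*, *PPARD* and *PPARG*, were all within 0.32.

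For the targets of ERR and PGC-1 in oxidative metabolism, 26 of 28 genes had a value. Their median log2 LN/HN was -0.04, with 10 higher and 16 lower, and only *MB*, which encodes the oxygen carrier myoglobin, was past 0.32 (-0.37), against 8.85% of all genes past 0.32 higher and 9.11% lower. *OGDH* (-0.25), of the citric acid cycle, and *UQCRC1* (-0.21), of respiratory complex III, were next. Highest were *CS* (0.18), *IDH3A* (0.16) and *SUCLA2* (0.10), all enzymes of the citric acid cycle. For *TFAM* and its partners in the maintenance and transcription of mitochondrial DNA, 12 of 15 genes had a value and none was past 0.32 in either direction (the same shares of all genes apply), with a median of 0.04. *TFB1M*, a methyltransferase of mitochondrial ribosomal RNA, had the highest value (0.26), followed by *SSBP1* (0.15) and *LONP1* (0.14). *NRF1*, a nuclear activator of *TFAM*, had the lowest (-0.21), followed by *POLRMT* (-0.15), the mitochondrial RNA polymerase, and *TWNK* (-0.11), the helicase.

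**Figure D5:**
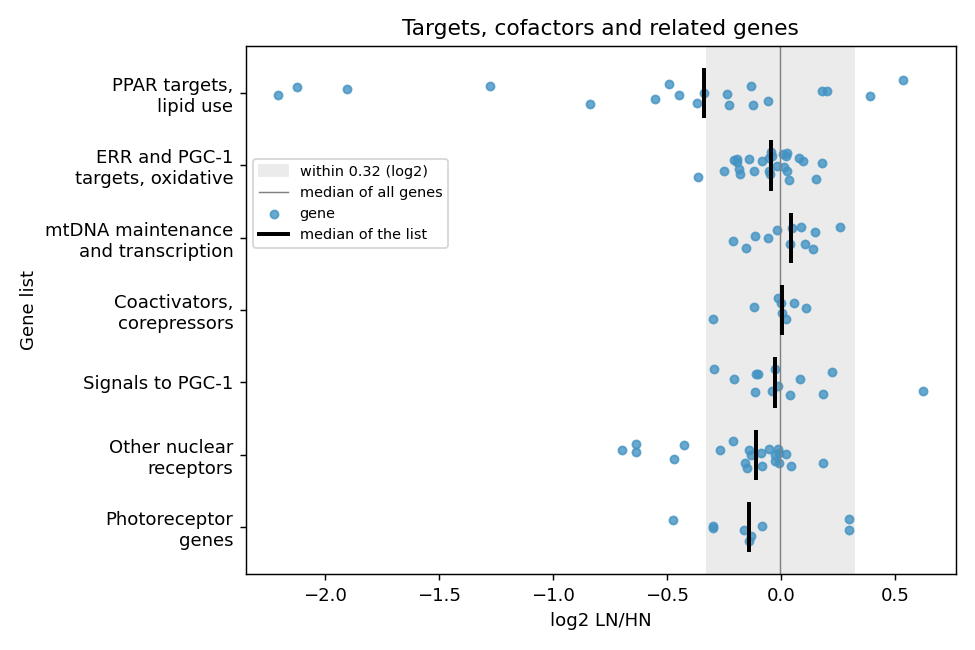
log2 LN/HN (x axis) of single genes (points) in 7 lists of targets, cofactors and related genes (y axis), with the median of each list (black bars), the median of all genes (grey line) and the range within 0.32 (grey band). The PPAR targets spread to -2.20 with a median of -0.34, and the medians of the ERR and PGC-1 targets and of the mitochondrial DNA genes are -0.04 and 0.04.

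Of the coactivators, corepressors and modifiers that act on these receptors, 8 of 16 genes had a matched probe. None was past 0.32 (8.85% of all genes were higher and 9.11% lower), and the median was 0.004. *LPIN1*, which encodes lipin 1, a partner of PPARα and PGC-1α, had the lowest value (-0.30, with probes from -0.48 to 0.05), followed by *HDAC3* (-0.12) and *SIRT1* (-0.01), the deacetylase that acts on PGC-1α. The highest were *PRMT1* (0.11), *NCOR1* (0.06) and *MED1* (0.02). Of the signals that control PGC-1 transcription, 13 of 17 genes had a value, with a median of -0.02. *TWIST1*, which encodes a repressor that binds PGC-1α, was past 0.32 (0.62, or 1.54-fold, 1 probe), and 1 of 13 is near the 8.85% of all genes. *CREB1* (0.23) and *PRKAB2* (0.19) were next, and *CRTC2* (-0.29), *HDAC5* (-0.21) and *CRTC1* (-0.11) were lowest.

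The tissue label was checked with fibre markers of skeletal muscle, and all 16 markers with a matched probe, of 18 listed, were detected. Their summed signal was 1165580 in HN and 1108720 in LN, with a median log2 LN/HN of -0.13. Past 0.32 were *MYH8* (0.35), the perinatal myosin heavy chain, and with lower values *MYH1* (-0.50), a fast myosin heavy chain, and *MB*. The counts for other cells stand against 8.85% of all genes past 0.32 higher and 9.11% lower. Of 7 neutrophil markers with a value, 4 were past 0.32 higher and 1 past 0.32 lower (median log2 LN/HN 0.61, summed signal 628 in HN and 1128 in LN). Among these, *MPO* (8.62-fold higher) and *CXCR2* (at least 1.72-fold lower) were detected on 1 array only. The fold of *MPO* uses its own dim HN signal and is not a limit. The others were *S100A8* (2.62-fold higher), *S100A9* (2.37-fold higher) and *S100A12* (1.52-fold higher). Of 9 fibroblast markers, 4 were past 0.32 higher and none lower (median 0.26, summed signal 26283 in HN and 31504 in LN). Of 7 macrophage markers, 3 were past 0.32 lower and none higher (median -0.29, summed signal 6207 in HN and 4913 in LN). Endothelial markers had lower values in 8 of 9 genes (median -0.23, summed signal 8229 in HN and 6742 in LN), but *CLDN5* alone was past 0.32 (-0.39). The marker genes were named after their values were seen. Adipocyte, satellite cell and erythroid markers had medians of -0.02, 0.06 and -0.06. The part of these cells in the values of *RXRG*, *NR2E3* and the PPAR targets was not tested.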

How the data were processed

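Pooled total RNA of each group was measured on 1 Agilent Bovine (v2) 4x44K array. The authors read spot intensities with Agilent Feature Extraction 11.0.1.1 and deposited the processed ones, with background subtracted and no normalization between arrays. A deposited table also gives 30027 probes after quantile normalization in GeneSpring GX, whose values fit a log2 scale. For the present values, log2 intensities of the 43803 non-control spots were normalized by the quantile method (limma 3.58.1, R 4.3.3). The remaining steps used Python 3.11.15, numpy 2.4.6, pandas 2.3.3 and matplotlib 3.10.9, and were tested on simulated data. The simulation held no probe dim on 1 array only and no raw signals. It therefore did not test the handling of such probes or normexp. Spots with an outlier flag (13) were removed. Probes that the software called well above background on 1 or both arrays were kept as detected. For a probe dim on 1 array, the dim value was replaced by the lowest signal called above background there, unless its own was higher. These lowest signals were log2 2.27 on HN and 2.82 on LN. A fold with a replaced value is a lower limit, and one with the probe's own dim value is as measured. Where the dim array then did not have the lower value, the probe gave no fold. A gene is the mean of its detected probes with a fold, and the threshold of log2 0.32 is 1.25-fold. Accessions were matched through RefSeq (ARS-UCD2.0, names only, 26742 probes), and no coordinates are given because the array design uses an older assembly. The software marked 74.5% (HN) and 70.9% (LN) of spots as well above background, none was saturated, and the SD of a single spot's log2 ratio was 0.085 over 42 repeated probes. The number of arrays limits the precision.

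The genes, the 16 other gene lists and the settings were chosen with earlier results of these data known. Named were all 10 regulators and, of each list of targets, cofactors or related genes, the 3 highest and 3 lowest genes measured on both arrays. The files hold no mean spot signal, so normexp (offset 50) was run on median signals. With 2 arrays, likeness of pattern between genes was not measured.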

Additional observations from a re-analysis of the deposited data

How the results depend on the processing

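The values of the 8 regulators, their counts and median, and the medians of 8 related gene lists were recomputed under 12 alternative settings. Counts within those lists, their single genes and the cell markers were not recomputed. Moves larger than the software error (genes), the SD of a spot of 0.085 (medians) or 1.5 times (counts) are given. No paired analysis was possible because each group had 1 array, and no replicate could be left out for the same reason. After the normexp background correction, whose offset of 50 exceeds the signal of *PPARA* and *NR2E3*, the log2 LN/HN was -0.0424 for *PPARA* and 0.412 for *NR2E3*, and the regulators past 0.32 numbered 1 in all, 0 lower, and 0 past 2-fold. Without a filter on dim probes, *NR2E3* had a value of 1.02. With cyclic loess, 2 regulators were past 0.32 higher, since *PPARA* reached 0.33. The median of the PPAR targets was -0.25 without normalization and, in an alternative chosen after seeing the data, -0.23 without the genes tested by PCR. That of other nuclear receptors was -0.20 with the 75th percentile subtracted. The median of the photoreceptor genes was -0.33 with the 75th percentile subtracted, -0.26 with cyclic loess, -0.29 without normalization, -0.27 in the authors' values, -0.30 for probes positive and significant on 1 array, -0.30 with dim probes as measured and 0.0266 without a filter. Over all genes, 1731 were past 0.32 higher and 1781 lower (49.3% higher). The counts were 1191 and 2693 (30.7%) with the 75th percentile subtracted, 1462 and 2260 (39.3%) without normalization, 319 and 386 after normexp, 3125 and 3777 for positive and significant probes, and 3251 and 3592 without a filter. The other 236 values did not move by more than these limits. Among the regulators with a value, *PPARA*, *RXRB* and *NR2E3* had the dimmest signals and the largest software errors.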

Other observations

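Other nuclear receptors were described as a group beside the PPARs, RXRs and ERRs. Of 32 genes, 26 had a probe and 22 a value, with 3 higher and 19 lower. Their median log2 LN/HN was -0.11, against -0.003 for all genes. None was past 0.32 higher, against 8.85% of all genes, and 5 were past 0.32 lower, against 9.11%. *NR4A1*, an immediate early orphan receptor induced by contraction and growth signals, had the lowest value, with a log2 signal of 10.63 in HN and 9.93 in LN and a log2 LN/HN of -0.70 (3 probes from -0.75 to -0.59). *NR4A2*, of the same family and named after its values were seen, had a log2 LN/HN of -0.47 (probes of -0.50 and -0.43). Its remaining detected probe was dim on 1 array and gave no fold. *NR0B1* (-0.64) and *NR5A2* (-0.63, with probes of -1.0 and -0.27), which are known from steroidogenic tissues and from liver, were dim, and *NR2C1* (-0.42, named after its values were seen) has 1 probe. These 3 genes lie among the dimmest of 3 equal groups of genes by signal, of which 16.6% were past 0.32 lower. The highest values were those of *NR2F1* (0.19), *NR1D1* (0.05) and *RORA* (0.02). The thyroid hormone receptor *THRA* (-0.13) and the glucocorticoid receptor *NR3C1* (-0.05), also named after their values were seen, were bright and within 0.32.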
